A study of Mus musculus with 21 samples.

Results

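MicroRNA levels in the pituitary of *Zeb1 200H* female mice were compared with those of WT females of the same breeding trial cohort, at 28 to 36 weeks of age, by small-RNA-seq. The libraries were chosen by genotype and cohort label: *Zeb1 200H* replicates 1, 3 and 4 and WT replicates 1 to 4, which are 7 of the 21 libraries of the series. *Zeb1 200H* mice carried 1 copy of *Zeb1200*, a knock-in allele whose 3′ UTR lacks working sites for miR-200a and miR-200b, and WT mice carried none. The allele came from 2 embryonic stem cell clones and was backcrossed to C57BL/6J, and the labels do not say from which clone a library descends. All females had lived with a WT male for a trial of at least 12 weeks and were killed at the first proestrus seen after the males were taken out. The knock-in is in the germ line, so it is not limited to a pituitary cell type, and each library holds RNA of the pituitary as a whole. Libraries of *Zeb1 200M* mice, which carried 2 copies, and of virgin females of 8 to 12 weeks are compared in the last 2 comparisons.

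MicroRNAs guide Argonaute proteins to matching sites in messenger RNAs, mostly through the seed, and lower the output of those messages. Members of the miR-200 superfamily repress *Zeb1* and *Zeb2*, and the ZEB proteins in turn repress the genes that encode the miR-200 hairpins, a mutual inhibition best known from epithelial cells. In the pituitary, members of the miR-200b family are needed for normal luteinizing hormone and ovulation.

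The deposited counts came to 154546, 113937, 84093 and 191650 in WT replicates 1 to 4. They came to 110003, 60037 and 131324 in *Zeb1 200H* replicates 1, 3 and 4. The totals of the genotypes overlapped, and *Zeb1 200H* replicate 3 was the shallowest. A library held counts for 438 to 523 miRNAs, of 1841 names in the table the reads were matched to. Levels are given as counts per 1000000 miRNA counts of the library (CPM), always in the replicate order above, and 3 counts, taken as the floor, corresponded to 15.7 to 49.97 CPM. Floors and the exact counting intervals of ratios cover counting error only, as the reads carry no count of molecules. Intervals of fitted fold changes, and of differences between them, also cover the spread between libraries of a group.

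In *Zeb1 200H* pituitaries the guide strands of the miR-200 superfamily, miR-205-5p and the guides of the miR-183, miR-96 and miR-182 cluster were lower by 3.00-fold to 9.32-fold, and miR-124-3p was 3.13-fold higher. Among the 267 miRNAs with enough counts to test, 32 (12.0%) had an edgeR adjusted p under 0.05 after Benjamini-Hochberg adjustment and are described as called. Of these, 13 (4.87% of those tested) were higher and 19 (7.12%) lower in *Zeb1 200H*. Apart from 2 miR-200 passenger strands with few counts, called fold changes ran from 1.33 to 9.32, 13 of 30 over 2. Of the 32, 3 (those 2 strands and miR-183-5p) passed the filter on low counts through WT alone, so being tested favored a lower level in *Zeb1 200H*. Over all tested miRNAs the median log2 fold change was 0.004, and 134 were above 0. The ranges of CPM did not overlap between genotypes for 79 miRNAs (29.6%), among them 27 of the 32 called. Fold changes and tests use TMM scaling, which gave factors of 0.929 to 0.967 in WT and 1.07 to 1.08 in *Zeb1 200H*, so the log2 ratio of mean CPM exceeded the fitted log2 fold change by a median of 0.17. With that scaling the ranges of 63 miRNAs (23.6%) did not overlap.

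The count called lower stayed between 16 and 22 when any 1 library was left out. The count called higher was less steady, at 8 without WT replicate 1, 8 without WT replicate 4, 8 without *Zeb1 200H* replicate 1, 8 without *Zeb1 200H* replicate 3 and 7 without *Zeb1 200H* replicate 4. DESeq2 in place of edgeR called 7 higher and 18 lower. Here and below DESeq2 was run without the filter on low counts, so its adjustment in this comparison covered 690 miRNAs. Its counts thus differ from those of edgeR by both the tool and the number tested. With the replicate number as a block, edgeR called more in each direction, as given in the last section. The median level in WT was 3093 CPM for the called lower miRNAs, 13 of 19 above 1000 CPM, and 261 CPM for the called higher miRNAs, 2 of 13 above 1000 CPM. For the 235 miRNAs not called it was 500 CPM, with 84 above 1000 CPM. All called lower miRNAs together made up 23.5% of WT and 14.01% of *Zeb1 200H* counts. All called higher miRNAs made up 0.621% of WT and 1.35% of *Zeb1 200H* counts. The direction of these sums was set by the choice of members, which were called in the same libraries.

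**Figure D1:**
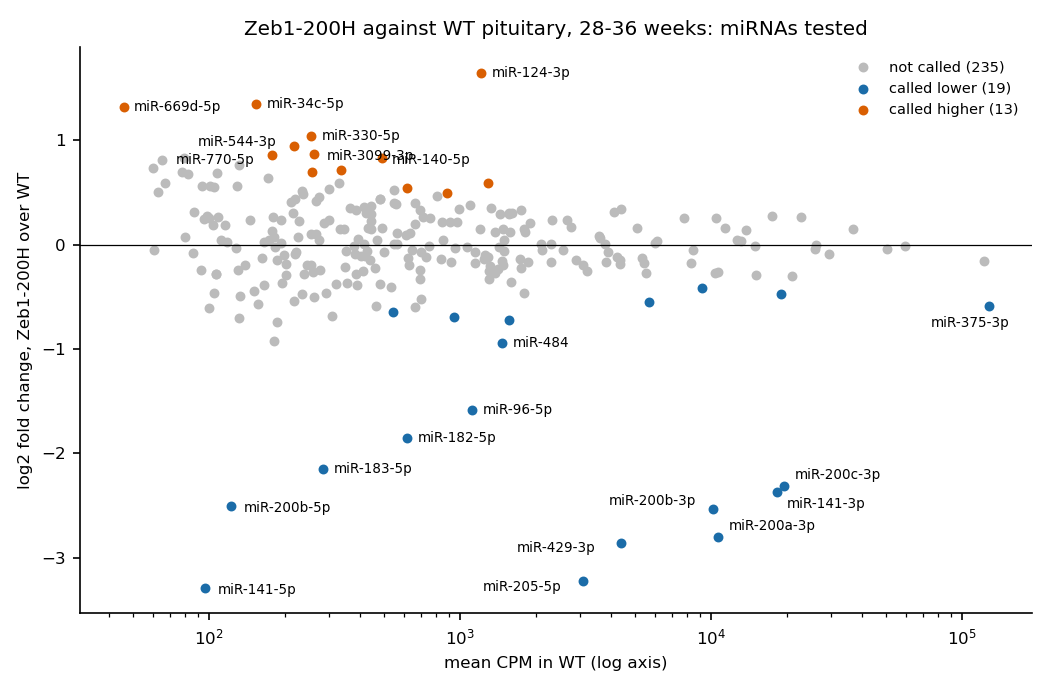
Each point is 1 of the 267 miRNAs tested, placed by its mean CPM in WT (log axis) and its log2 fold change in *Zeb1 200H* over WT, with called lower miRNAs in blue and called higher miRNAs in orange. The miR-200 guides sit at the lower right, at 4391 to 19542 CPM in WT, while 2 of the 13 called higher miRNAs lie above 1000 CPM.

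The guide strands of the miR-200 superfamily, the arms loaded into Argonaute, all fell. They form a pair of seed families, the miR-200b, miR-200c and miR-429 family with seed AAUACUG and the miR-200a and miR-141 family with seed AACACUG. The mature sequences are shown, with the seed (bases 2 to 8) in capitals, because the seed sets which messages a guide recognizes and the *Zeb1200* allele was built to lose both kinds of site. They are from RefSeq on GRCm38.p6, whose table matched 26 of the 32 called miRNAs; the others were miR-124-3p, miR-34c-5p, miR-140-5p, miR-328-3p, miR-375-3p and miR-669d-5p.
miR-200b-3p: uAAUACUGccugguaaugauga
miR-200c-3p: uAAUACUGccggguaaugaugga
miR-429-3p: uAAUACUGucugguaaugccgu
miR-200a-3p: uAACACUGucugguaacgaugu
miR-141-3p: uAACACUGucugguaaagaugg

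Within the AAUACUG family, miR-200c-3p stood at 19153, 18861, 21536 and 18617 CPM in WT and at 4382, 4780.4 and 4188 CPM in *Zeb1 200H*. The genotypes did not overlap, and WT replicate 3 was highest. Its log2 fold change was −2.31 (SE 0.11; adjusted p = 5.66e-14 by edgeR with Benjamini-Hochberg). miR-200b-3p stood at 10217, 10085, 10476 and 9789 CPM in WT and at 1818, 2265 and 1889 CPM in *Zeb1 200H*. No WT library came near the *Zeb1 200H* range, and the log2 fold change was −2.53 (SE 0.12; adjusted p = 5.66e-14 by edgeR with Benjamini-Hochberg). miR-429-3p stood at 4167, 4669, 4448 and 4279 CPM in WT and at 782, 549.7 and 670.1 CPM in *Zeb1 200H*. Here too the genotypes were apart, with *Zeb1 200H* replicate 3 lowest, and the log2 fold change was −2.86 (SE 0.15; adjusted p = 2.07e-13 by edgeR with Benjamini-Hochberg).

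Within the AACACUG family, miR-141-3p stood at 19554, 16562, 16803 and 20042 CPM in WT and at 4136, 3131 and 4592 CPM in *Zeb1 200H*. No library of one genotype lay within the range of the other. Its log2 fold change was −2.37 (SE 0.13; adjusted p = 7.80e-13 by edgeR with Benjamini-Hochberg). miR-200a-3p stood at 10308, 11208, 10512 and 10796 CPM in WT and at 1373, 1882 and 1972 CPM in *Zeb1 200H*. Again the ranges were apart. The log2 fold change was −2.80 (SE 0.14; adjusted p = 5.66e-14 by edgeR with Benjamini-Hochberg). Summed over the 5 guides, the superfamily held 63399, 61385, 63775 and 63522 CPM in WT and 12491, 12609 and 13311 CPM in *Zeb1 200H*, or 6.30% and 1.28% of all miRNA counts. The sums did not overlap and were 4.92 times as high in WT by CPM. In RNA of a whole tissue, fewer cells of a type and less RNA per cell cannot be told apart.

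**Figure D2:**
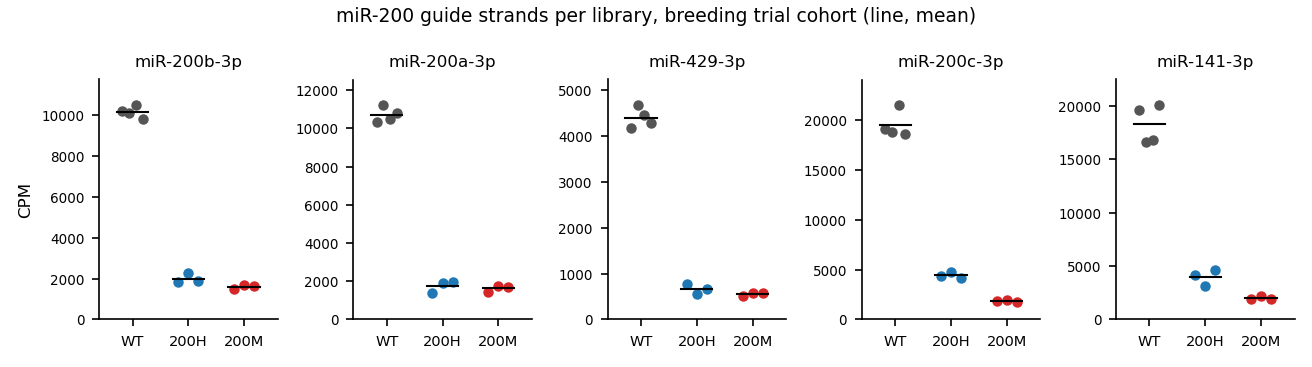
CPM of the guide strands of the miR-200 superfamily in each breeding trial library, by genotype, with 1 point per library and a bar at the mean. All 3 *Zeb1 200H* libraries lie below all 4 WT libraries for each guide, and the *Zeb1 200M* libraries lie below the *Zeb1 200H* libraries for miR-200b-3p, miR-200c-3p and miR-141-3p.

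The passenger strands, the arms of the same hairpins that are mostly discarded, were rare, and 2 of the 5 had enough counts to test. miR-200b-5p stood at 110, 140, 119 and 120.0 CPM in WT and at 18.2, 33.3 and 22.8 CPM in *Zeb1 200H*. The genotypes did not overlap, although each *Zeb1 200H* value rests on 3 counts or fewer. It had 66 counts in WT and 7 in *Zeb1 200H*, a ratio of 5.22 in CPM with an exact 95% counting interval from 2.40 to 13.5. miR-141-5p stood at 104, 96.5, 107 and 78.3 CPM in WT and at 9.09, 0 and 15.2 CPM in *Zeb1 200H*, and these ranges were also apart. The *Zeb1 200H* values are at or below the floor and hold 3 counts in all, against 51 in WT, a ratio of 9.41 in CPM with an exact 95% counting interval from 3.05 to 47.2. As both passed the filter through WT alone, no fitted fold is given. They were also called lower with no filter, at an adjusted p of 2.13e-05 and 8.85e-06 by edgeR with Benjamini-Hochberg, and their highest adjusted p under any setting was 0.00658 and 0.0118, by DESeq2. With any of WT replicates 1, 2 or 3 left out miR-141-5p had too few counts to test. miR-200a-5p had 39 counts in WT and 1 in *Zeb1 200H*, a ratio of 21.6 in CPM with an exact 95% counting interval from 3.66 to 875. DESeq2, run without that filter, also called it lower. miR-200c-5p had 11 counts and 1 count, a ratio of 6.09 with an interval from 0.885 to 262, so a difference was not detectable at this depth. miR-429-5p had 0 counts in every library.

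The 5 hairpins lie in a pair of clusters on GRCm38.p6. *Mir200b*, *Mir200a* and *Mir429* span bases 156053905 to 156055750 of chromosome 4, and *Mir200c* and *Mir141* span bases 124717914 to 124718390 of chromosome 6, both on the minus strand. The guides of the chromosome 4 cluster summed to 24692, 25962, 25436 and 24863 CPM in WT and to 3973, 4697 and 4531 CPM in *Zeb1 200H*. Those of the chromosome 6 cluster summed to 38707, 35423, 38339 and 38659 CPM in WT and to 8518, 7912 and 8780 CPM in *Zeb1 200H*. Neither sum overlapped between genotypes, and WT was 5.74 and 4.50 times as high by CPM. The guides of chromosome 6 over those of chromosome 4 gave ratios of 1.57, 1.36, 1.51 and 1.56 in WT and of 2.14, 1.68 and 1.94 in *Zeb1 200H*. The ratios did not overlap, and whether the clusters differed in their fall was not tested.

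miR-205-5p, an epithelial miRNA of basal and stem cell layers that also has *Zeb1* and *Zeb2* among its known targets, had the largest fold of any miRNA with over 1000 CPM in WT. It stood at 2899, 3941, 3021 and 2509.8 CPM in WT and at 345, 316 and 426 CPM in *Zeb1 200H*. The genotypes were far apart, and WT replicate 2 was highest. The log2 fold change was −3.22 (SE 0.19; adjusted p = 1.16e-12 by edgeR with Benjamini-Hochberg). Of the 7 epithelial miRNAs outside the miR-200 superfamily, 5 were tested, 1 was called lower and 0 higher, with a median log2 fold change of −0.28. This compares with 19 lower, 13 higher and a median of 0.004 among all 267.

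miR-183, miR-96 and miR-182 are made from 1 cluster on chromosome 6, bases 30165918 to 30169737 on the minus strand, and are known from sensory cells of the ear and eye. All 3 guides were called lower. miR-96-5p stood at 1158, 1027, 1130 and 1148 CPM in WT and at 418, 283 and 503 CPM in *Zeb1 200H*. miR-182-5p stood at 634, 597, 797 and 438 CPM in WT and at 209, 117 and 206 CPM in *Zeb1 200H*. miR-183-5p stood at 252, 316, 345 and 229.6 CPM in WT and at 81.8, 49.97 and 68.5 CPM in *Zeb1 200H*. The WT and *Zeb1 200H* ranges were apart for each of the 3, and *Zeb1 200H* replicate 3 was the lowest library each time. The log2 fold changes were −1.59 (SE 0.18), −1.85 (SE 0.25) and −2.15 (SE 0.31), with edgeR, Benjamini-Hochberg adjusted p of 5.11e-07, 5.09e-06 and 1.22e-05. miR-183-5p passed the filter through WT alone, so being tested favored a lower level in *Zeb1 200H*. Its *Zeb1 200H* values rest on 9, 3 and 9 counts, with replicate 3 at the floor. With no filter its adjusted p was 5.66e-09 by edgeR with Benjamini-Hochberg, and the highest under any setting was 0.000516, without *Zeb1 200H* replicate 4. The cluster's other arms had at most 1 count in any library. These miRNAs do not share a seed with the miR-200 guides. Their sequences and that of miR-205-5p are shown, with the seed in capitals, as the miRNAs outside the superfamily with the largest falls.
miR-96-5p: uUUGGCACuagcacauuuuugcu
miR-182-5p: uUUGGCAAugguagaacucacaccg
miR-183-5p: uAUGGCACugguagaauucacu
miR-205-5p: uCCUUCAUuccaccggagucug

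Of the miRNAs typical of endocrine cells, miR-375-3p and miR-7a-5p were the 2 most abundant miRNAs of each library. miR-375-3p, which acts in hormone secreting cells of the pancreas and pituitary, stood at 122999, 143518, 131176 and 113342 CPM in WT and at 92797, 101704 and 92603 CPM in *Zeb1 200H*. The genotypes did not overlap, and the log2 fold change was −0.59 (SE 0.09; adjusted p = 5.34e-05 by edgeR with Benjamini-Hochberg). miR-7a-5p, an endocrine and neuronal miRNA needed for normal gonadotropin output, stood at 133151, 102100, 127644 and 125656 CPM in WT and at 135905, 115396 and 119026 CPM in *Zeb1 200H*. miR-7b-5p, which has the same seed, stood at 52049, 42383, 55546 and 51891 CPM in WT and at 60553, 53684 and 51773 CPM in *Zeb1 200H*. Both overlapped between genotypes and were not called, with log2 fold changes of −0.16 (95% interval −0.37 to 0.05) and −0.04 (−0.26 to 0.18). With the replicate number as a block, miR-7a-5p was called lower at −0.24 (adjusted p = 0.000519 by edgeR with Benjamini-Hochberg). Whether the numbers mark pairs is not stated by the labels. Without the block, 1 of the 3 endocrine miRNAs was called lower and 0 higher. Their median log2 fold change was −0.16, against 7.12% lower and 4.87% higher among all tested.

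The 10 most abundant miRNAs in WT made up 52.2% of WT and 52.5% of *Zeb1 200H* counts, and miR-375-3p was the 1 called among them. The others, apart from miR-7a-5p and miR-7b-5p, were miR-29a-3p, miR-29b-3p, miR-29c-3p, miR-127-3p, miR-26a-5p, miR-125b-5p and miR-125a-5p, with log2 fold changes from −0.30 to 0.27. miR-125a-5p, of the lin-4 family, reached an edgeR, Benjamini-Hochberg adjusted p of 0.0489 and a log2 fold change of −0.40 without *Zeb1 200H* replicate 3. With the replicate number as a block, miR-7a-5p and miR-125b-5p were called as well. At such depth the test was most precise: the 95% interval of a fold change reached a median of 1.17-fold to each side above 1000 mean counts, against 1.57-fold under 30 mean counts.

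Both arms of miR-335, made from an intron of the imprinted gene *Mest*, were called lower. They and the other called miRNAs outside the naming rule (miR-484, miR-409-5p, miR-540-5p and miR-669d-5p) were chosen for naming after their values were seen. miR-335-5p stood at 18881, 16474, 19621 and 21049 CPM in WT and at 15000, 15840 and 15367 CPM in *Zeb1 200H*. miR-335-3p stood at 1579, 1729, 1546 and 1440.1 CPM in WT and at 955, 1016 and 1226 CPM in *Zeb1 200H*. Neither arm overlapped between genotypes. The log2 fold changes were −0.48 (SE 0.11) and −0.72 (SE 0.15), with edgeR, Benjamini-Hochberg adjusted p of 0.00279 and 0.00120. The arms are shown with their seeds in capitals because a hairpin with both arms called lower was otherwise seen for miR-141 and miR-200b, whose passenger strands had few counts, among 49 hairpins with both arms tested and in the table.
miR-335-5p: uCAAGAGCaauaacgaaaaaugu
miR-335-3p: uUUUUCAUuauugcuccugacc

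miR-484, made opposite an exon of *Marf1*, stood at 1281, 1905, 1356 and 1362 CPM in WT and at 709, 983 and 914 CPM in *Zeb1 200H*. All *Zeb1 200H* libraries lay outside the WT range, and the log2 fold change was −0.95 (SE 0.17; adjusted p = 0.000324 by edgeR with Benjamini-Hochberg). Of the miR-181 family, whose 4 members share the seed ACAUUCA, miR-181a-5p was called lower, at 5539, 6469, 6350.1 and 4232 CPM in WT and 3809, 5164 and 4097 CPM in *Zeb1 200H*. The genotypes overlapped through WT replicate 4, and the log2 fold change was −0.55 (SE 0.14; adjusted p = 0.0112 by edgeR with Benjamini-Hochberg). Its adjusted p (edgeR, Benjamini-Hochberg) was 0.123 without *Zeb1 200H* replicate 1 and 0.0951 without replicate 4. The other members, miR-181b-5p, miR-181c-5p and miR-181d-5p, were not called at −0.20, −0.07 and −0.21, and the family's median was −0.20. Of the miR-148 and miR-152 family, seed CAGUGCA, miR-152-3p was called lower, at 9020.0, 9593, 8633 and 9596 CPM in WT and 8773, 7046 and 7516 CPM in *Zeb1 200H*. Here *Zeb1 200H* replicate 1 lay within the WT range by CPM and below it after TMM scaling. The log2 fold change was −0.41 (SE 0.11; adjusted p = 0.0142 by edgeR with Benjamini-Hochberg, and 0.0841 without *Zeb1 200H* replicate 4), while miR-148a-3p and miR-148b-3p, at −0.13 and −0.24, were not called, and the median of the 3 was −0.24.

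miR-124-3p, the miRNA most typical of neurons, was the called higher miRNA with the largest fold. It stood at 1126, 825, 1439 and 1477 CPM in WT and at 4618, 3565 and 4653 CPM in *Zeb1 200H*. The genotypes were apart, with WT replicate 2 lowest. The log2 fold change was 1.64 (SE 0.17; adjusted p = 6.04e-08 by edgeR with Benjamini-Hochberg). It was the 1 called of 8 tested neuronal miRNAs, of 11 listed, a share near the 12.0% of all tested. Their median log2 fold change was 0.14. In either direction, 4 of the 8 had an unadjusted p under 0.05, against 73 of all 267. The neuronal list, whose most abundant member was miR-153-3p, summed to 13168, 13042, 11261 and 13759 CPM in WT and to 18754, 15657 and 18984 CPM in *Zeb1 200H*. Without miR-124-3p it summed to 12042, 12217, 9822.5 and 12283 CPM in WT and to 14136, 12093 and 14331 CPM in *Zeb1 200H*. The genotypes did not overlap with miR-124-3p and overlapped without it, and after TMM scaling both sums overlapped. No listed neuronal miRNA was at 0 in all libraries.

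miR-34c-5p, of the miR-34 and miR-449 family found in ciliated cells and downstream of p53, stood at 129, 96.5, 202 and 188 CPM in WT and at 582, 366 and 366 CPM in *Zeb1 200H*. There was no overlap between genotypes, and the log2 fold change was 1.35 (SE 0.26; adjusted p = 0.000625 by edgeR with Benjamini-Hochberg). miR-34a-5p, which has another locus, had a log2 fold change of −0.60 and was not called, and the family's other 5 listed members were below the filter on low counts. miR-330-5p, from an exon of *Eml2*, stood at 265, 246, 249.7 and 261 CPM in WT and at 573, 666 and 571 CPM in *Zeb1 200H*. These ranges were narrow and apart, and the log2 fold change was 1.04 (SE 0.19; adjusted p = 0.000305 by edgeR with Benjamini-Hochberg). It shares the seed CUCUGGG with miR-326-3p, whose log2 fold change of 0.51 was not called. Its sequence is shown, seed in capitals, for the shared seed.
miR-330-5p: uCUCUGGGccugugucuuaggc

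miR-140, whose hairpin lies in *Wwp2* and which is known from cartilage, was called higher on both arms. miR-140-5p stood at 408, 518, 523 and 501 CPM in WT and at 964, 883 and 1043 CPM in *Zeb1 200H*. miR-140-3p stood at 272, 359.9, 190.3 and 209 CPM in WT and at 436, 466 and 503 CPM in *Zeb1 200H*. Neither arm overlapped between genotypes. The log2 fold changes were 0.83 (SE 0.17) and 0.69 (SE 0.22), with edgeR, Benjamini-Hochberg adjusted p of 0.000824 and 0.0432. The miR-140-3p call was kept without WT replicate 2 and lost without any other library: leaving out WT replicates 1, 3 or 4 gave an adjusted p (edgeR, Benjamini-Hochberg) of 0.066, 0.0770 and 0.106, and leaving out *Zeb1 200H* replicates 1, 3 or 4 gave 0.0776, 0.0815 and 0.129. DESeq2 gave 0.267, and edgeR with no filter 0.0535.

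**Figure D3:**
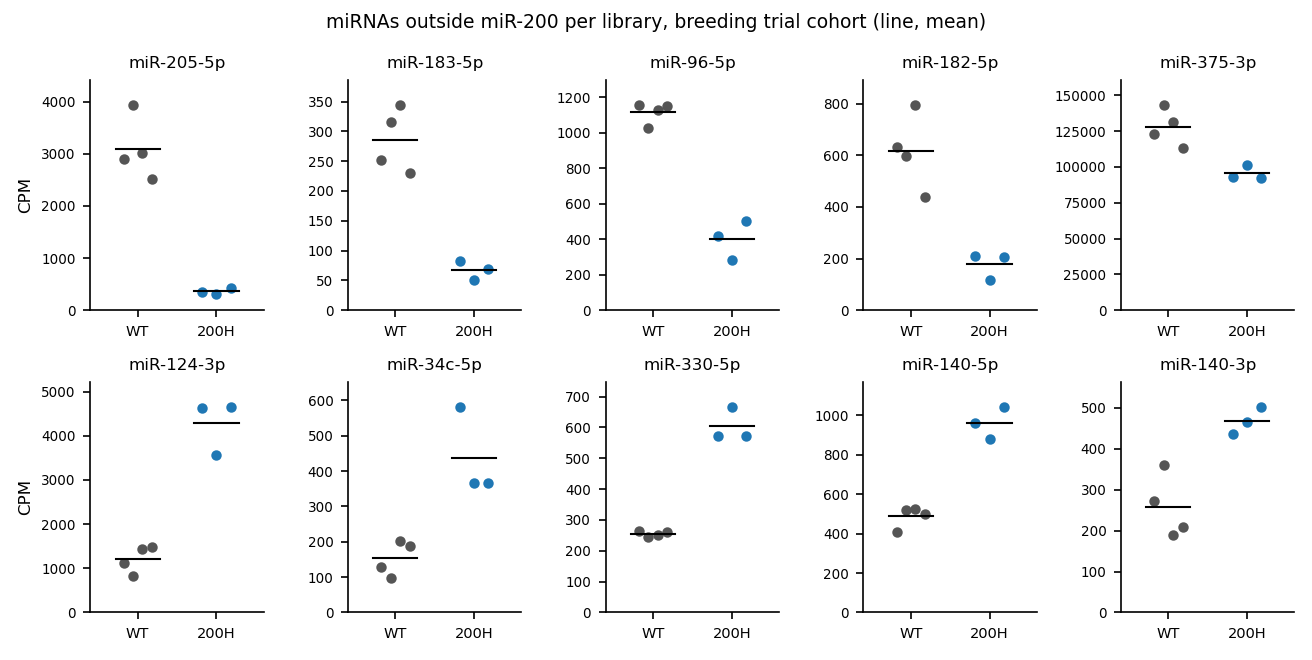
CPM of called miRNAs outside the miR-200 superfamily in each WT and *Zeb1 200H* library, with 1 point per library and a bar at the mean. miR-205-5p and the cluster of miR-183, miR-96 and miR-182 lie lower in each *Zeb1 200H* library than in any WT library, and miR-124-3p lies higher.

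The other called higher miRNAs that the naming rule took had folds from 1.41 to 1.92. miR-544-3p stood at 226, 211, 190.3 and 245 CPM in WT and at 436, 349.8 and 609 CPM in *Zeb1 200H*, without overlap. Its log2 fold change was 0.94 (SE 0.22; adjusted p = 0.00418 by edgeR with Benjamini-Hochberg, and 0.0903 without *Zeb1 200H* replicate 4). miR-3099-3p, from an intron of the imprinted gene *Usp29*, stood at 259, 272, 285 and 229.6 CPM in WT and at 527, 699.6 and 426 CPM in *Zeb1 200H*. miR-770-5p, from an exon of *Meg3*, an imprinted noncoding gene, stood at 168, 202, 202 and 140.9 CPM in WT and at 427, 249.9 and 350.3 CPM in *Zeb1 200H*. The genotypes did not overlap for either. The log2 fold changes were 0.87 and 0.86, with edgeR, Benjamini-Hochberg adjusted p of 0.00576 and 0.0187. Without *Zeb1 200H* replicate 3 the adjusted p (edgeR, Benjamini-Hochberg) of miR-3099-3p was 0.0503. That of miR-770-5p was 0.0629 without WT replicate 4, 0.154 without *Zeb1 200H* replicate 1 and 0.0558 without *Zeb1 200H* replicate 4.

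The maternally expressed miRNAs of the *Dlk1*-*Dio3* imprinted region of chromosome 12, which also holds *Meg3*, were also listed. All 30 listed were tested, and 0 were called by edgeR or by DESeq2, with 5 at an unadjusted p under 0.05 and a median log2 fold change of 0.12, against 32 called and 73 at an unadjusted p under 0.05 of all 267. The most abundant was miR-127-3p, at a log2 fold change of −0.09. Their sum was 88466, 96316, 87154 and 89116 CPM in WT and 96497, 95624 and 93654 CPM in *Zeb1 200H*, which overlapped by CPM with a ratio of 1.06 to WT. After TMM scaling the genotypes did not overlap and the ratio was 0.938, so the direction of this sum depends on the scaling. The list leaves out other miRNAs of the region: of the 55 tested that RefSeq places between *Dlk1* and *Dio3*, 27 of them listed, 4 (7.27%) were called. These 4 were miR-544-3p and miR-770-5p, called higher as given above, and miR-409-5p and miR-540-5p lower at log2 fold changes of −0.65 and −0.70. The CPM ranges of the latter 2 overlapped between genotypes, those of miR-409-5p not after TMM scaling, and the opposite arms, miR-409-3p and miR-540-3p, had log2 fold changes of 0.05 and 0.41. The adjusted p (edgeR, Benjamini-Hochberg) of miR-409-5p was 0.114 and 0.124 without WT replicates 1 and 2, and 0.126, 0.0877 and 0.111 without *Zeb1 200H* replicates 1, 3 and 4. That of miR-540-5p was 0.111 and 0.0713 without WT replicates 2 and 4, and 0.307 and 0.0815 without *Zeb1 200H* replicates 1 and 3.

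In further families 1 member was called higher. miR-100-5p stood at 434, 289.6, 392 and 229.6 CPM in WT and at 527, 683 and 639.6 CPM in *Zeb1 200H*, without overlap, and its log2 fold change was 0.71 (SE 0.22; adjusted p = 0.0323 by edgeR with Benjamini-Hochberg). The more abundant miR-99a-5p and miR-99b-5p, with the same seed ACCCGUA, were not called at 0.04 and −0.17, and the median of the 3 was 0.04. miR-384-5p, a brain enriched relative of miR-30, stood at 809, 992, 904 and 845 CPM in WT and at 1327, 1582 and 1340.2 CPM in *Zeb1 200H*, without overlap. Its log2 fold change was 0.50 (SE 0.15; adjusted p = 0.0323 by edgeR with Benjamini-Hochberg), while miR-30a-5p and miR-30e-5p, which share its seed GUAAACA, were not called at −0.05 and −0.26. The 4 tested members of the miR-30 and miR-384 family had a median of −0.16. miR-328-3p stood at 1223, 1562, 1439 and 955 CPM in WT and at 1782, 2449 and 2299.7 CPM in *Zeb1 200H*, again apart, with a log2 fold change of 0.59 (SE 0.16; adjusted p = 0.0175 by edgeR with Benjamini-Hochberg). Each of these 3 calls was lost without some libraries. The adjusted p (edgeR, Benjamini-Hochberg) of miR-100-5p was 0.071 without WT replicate 2, 0.106 without WT replicate 4, 0.103 without *Zeb1 200H* replicate 3 and 0.119 without *Zeb1 200H* replicate 4. That of miR-384-5p was 0.142 and 0.0659 without WT replicates 1 and 4, and 0.0504, 0.0929 and 0.0526 without *Zeb1 200H* replicates 1, 3 and 4, and 0.0700 with no filter. That of miR-328-3p was 0.0511 and 0.0659 without WT replicates 1 and 4, and 0.0815 and 0.0885 without *Zeb1 200H* replicates 3 and 4. miR-669d-5p was called at a log2 fold change of 1.32 from 1 to 14 counts per WT library, and its ranges overlapped. Its adjusted p (edgeR, Benjamini-Hochberg) was 0.0778, 0.0702 and 0.102 without WT replicates 2, 3 and 4, and 0.0776 and 0.294 without *Zeb1 200H* replicates 1 and 4. Besides miR-140-3p, DESeq2 without the filter did not call miR-669d-5p, miR-100-5p, miR-384-5p, miR-770-5p, miR-409-5p, miR-540-5p and miR-146a-5p.

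In 11 of the lists no tested member was called by edgeR. They held 66 tested miRNAs, of which 16 had an unadjusted p under 0.05 and DESeq2 without the filter called 0. The let-7 and miR-98 family had 7 members tested and 0 called, with a median log2 fold change of 0.21. Its most abundant member, let-7f-5p, stood at 17406, 16930, 17433 and 18111 CPM in WT and at 23990, 25784 and 21679 CPM in *Zeb1 200H*. These ranges did not overlap, and the log2 fold change was 0.27 (adjusted p = 0.0801 by edgeR with Benjamini-Hochberg). The miR-17-92 and miR-106b-25 clusters, of proliferating cells, had 8 members tested and 0 called, with a median of −0.18. Their most abundant member, miR-19b-3p, was at −0.46 and was called without WT replicate 3 (adjusted p = 0.00995 by edgeR with Benjamini-Hochberg). The miR-29, miR-125 and miR-26 families had 3, 2 and 2 members tested and 0 called, with medians of −0.02, −0.02 and −0.09. The miR-135 family had 2 tested and 0 called, with a median of 0.16 and most abundant member miR-135a-5p. miR-132 and miR-212, which GnRH induces in gonadotropes, had 4 arms tested and 0 called, with a median of 0.28. miR-132-3p stood at 9331, 11041, 10203 and 11104 CPM in WT and at 13118, 15174 and 13600.0 CPM in *Zeb1 200H*. WT and *Zeb1 200H* did not overlap, and the log2 fold change was 0.25 (adjusted p = 0.132 by edgeR with Benjamini-Hochberg). Over all 267 miRNAs 73 had an unadjusted p under 0.05.

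miRNAs typical of other cells in or around the gland were counted to see whether they moved with genotype. For the lists in this paragraph and the next, the background was all 267 tested miRNAs. Of these, 12.0% were called, with a median log2 fold change of 0.004. Vascular and smooth muscle miRNAs, most abundant miR-126a-3p, had 4 of 6 tested and 0 called, with a median log2 fold change of 0.27. They summed to 10075, 10515, 10441 and 10441 CPM in WT and to 14100.0, 12775 and 14163 CPM in *Zeb1 200H*, without overlap, also after TMM scaling. Blood and immune miRNAs, most abundant miR-451a, had 7 of 9 tested, with a median of 0.30. Of these, miR-146a-5p, which dampens inflammatory signaling, was called higher, at 537, 570.5, 642 and 704 CPM in WT and 1064, 1216 and 815 CPM in *Zeb1 200H*. The genotypes did not overlap by CPM and overlapped after TMM scaling, and the log2 fold change was 0.54 (SE 0.18; adjusted p = 0.0481 by edgeR with Benjamini-Hochberg). That adjusted p (edgeR, Benjamini-Hochberg) was 0.165 and 0.106 without WT replicates 1 and 2, and 0.158 and 0.164 without *Zeb1 200H* replicates 1 and 3. It was 0.0522 (edgeR, Benjamini-Hochberg) with TMM without the miR-200 arms and 0.0627 with no filter. The blood list summed to 7163, 9891, 7028 and 7639 CPM in WT and to 8945, 10910 and 9389 CPM in *Zeb1 200H*, which overlapped.

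Oligodendrocyte miRNAs, most abundant miR-338-3p, had 2 of 3 tested and 0 called, with a median of 0.27. They summed to 1184, 869, 821 and 1096 CPM in WT and to 1309, 1282.5 and 1835 CPM in *Zeb1 200H*, without overlap by CPM and with overlap after TMM scaling. The defining miR-219a-2-3p was at 0 in all 4 WT libraries and in *Zeb1 200H* replicate 3, and had 1 count in each of the other 2. Mesenchymal miRNAs, most abundant miR-21a-5p, had 2 of 8 tested and 0 called, with a median of −0.03. They summed to 4096, 4160.2, 4043 and 4440.4 CPM in WT and to 4782, 3981 and 4759 CPM in *Zeb1 200H*, which overlapped. Striated muscle miRNAs, most abundant miR-1a-3p, and the liver's miR-122-5p were below the filter. The muscle list summed to 19.4, 43.9, 23.8 and 47.0 CPM in WT and to 18.2, 49.97 and 30.5 CPM in *Zeb1 200H*. miR-122-5p stood at 6.47, 0, 0 and 5.22 CPM in WT and at 0, 49.97 and 15.2 CPM in *Zeb1 200H*. Both overlapped and were near the floor. The part of other cells in the differences between genotypes was not tested.

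**Figure D4:**
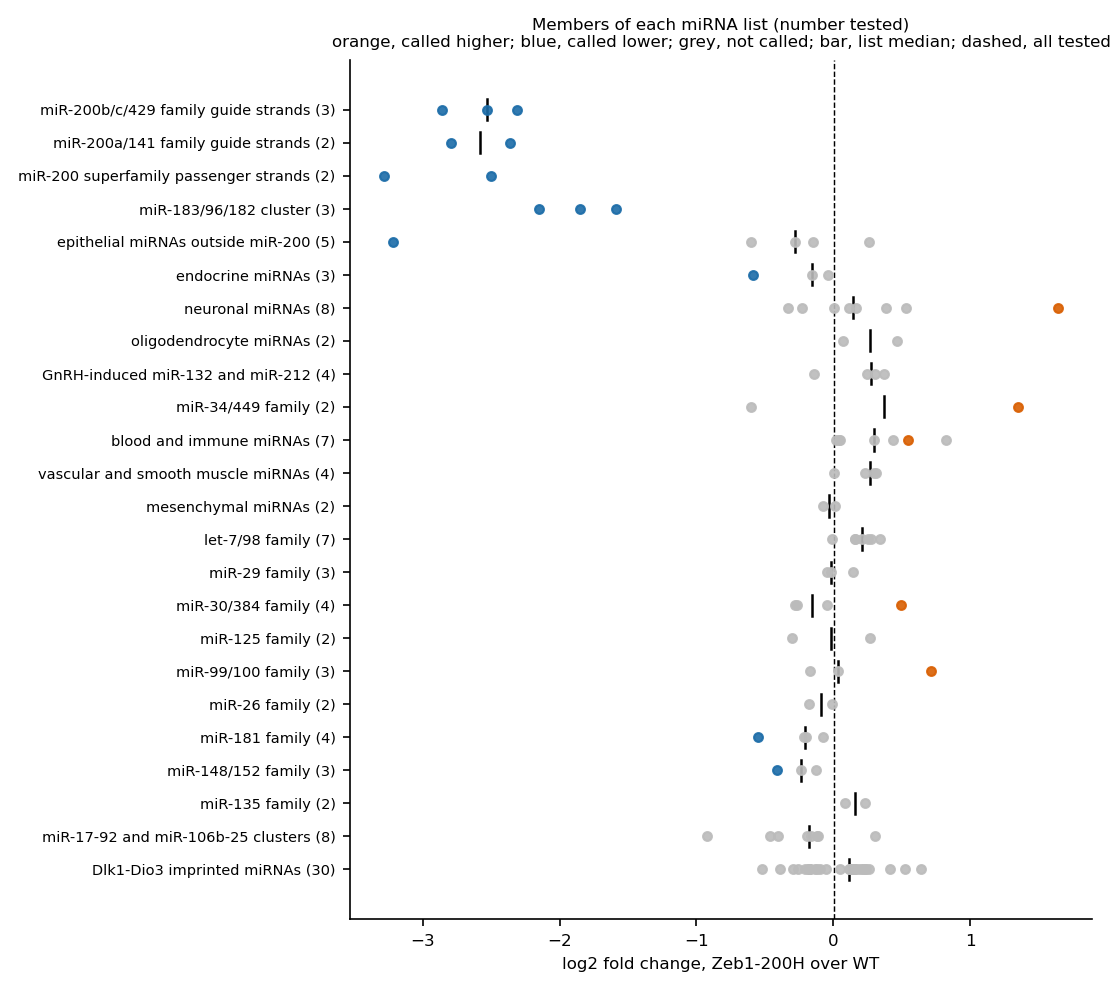
Log2 fold changes of the tested members of each miRNA list, *Zeb1 200H* over WT, with the list median as a bar and the median of all 267 tested miRNAs as a dashed line. The lists of miR-200 guides lie far to the left, with medians of −2.53 and −2.58. No median is drawn for the passenger strands and the miR-183 cluster, which hold members that passed the filter on low counts through WT alone.

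Whether 1 and 2 copies of *Zeb1200* differ was tested by comparing *Zeb1 200M* with *Zeb1 200H* directly, with the *Zeb1 200H* libraries shared with the comparison above. Of 274 miRNAs tested, 3 (1.09%) were called by edgeR, and DESeq2 also called 3. miR-200c-3p stood at 1848, 1989 and 1783 CPM in *Zeb1 200M* replicates 1 to 3, miR-141-3p at 1916, 2198 and 1938 CPM, and miR-124-3p at 8042, 7738 and 8232 CPM. Each was apart from its *Zeb1 200H* range, lower for miR-200c-3p and miR-141-3p and higher for miR-124-3p. Log2 fold changes over *Zeb1 200H* were −1.28, −1.02 and 0.85 (adjusted p = 1.37e-12, 2.28e-08 and 1.15e-07 by edgeR with Benjamini-Hochberg). Without *Zeb1 200M* replicate 2 the count was 5. The guides of the chromosome 4 cluster were not called, with log2 fold changes of −0.35 for miR-200b-3p (95% interval −0.66 to −0.04), −0.13 for miR-200a-3p (−0.45 to 0.19) and −0.34 for miR-429-3p (−0.73 to 0.06). Of these, miR-200b-3p, at 1472, 1683 and 1612 CPM in *Zeb1 200M*, did not overlap with *Zeb1 200H*. The guides of chromosome 6 over those of chromosome 4 gave ratios of 1.11, 1.05 and 0.954 in *Zeb1 200M*. These lay below the ratios of WT and of *Zeb1 200H*. miR-205-5p, at 331, 604 and 407 CPM, overlapped between these genotypes, with a log2 fold change of 0.25 (95% interval −0.20 to 0.71).

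Whether the effect of 1 copy differed between the breeding trial cohort and the virgin cohort was tested as the interaction of genotype and cohort. Of 489 miRNAs tested, 0 (0%) were called by edgeR and 0 by DESeq2, and 23 had an unadjusted p under 0.05. Without a filter on low counts edgeR called 2. miR-124-3p and miR-140-3p, listed under other names in the virgin table, were not in the joint fit. The miR-200 guides gave differences in log2 fold change from −0.19 (95% interval −0.71 to 0.32) for miR-429-3p to 0.56 (−0.32 to 1.44) for miR-200c-3p. The difference was −0.35 (−0.91 to 0.22) for miR-205-5p and 0.30 (−0.34 to 0.95) for miR-375-3p. For 4 of the called miRNAs the 95% interval left out 0, at 0.65 (0.10 to 1.21) for miR-330-5p, 0.81 (0.09 to 1.54) for miR-181a-5p, 0.76 (0.08 to 1.44) for miR-146a-5p and 1.24 (0.23 to 2.25) for miR-669d-5p, each with an adjusted p of 0.645 by edgeR with Benjamini-Hochberg. In virgin females their log2 fold changes were 0.41, −1.35, −0.20 and 0.09. As the calls come from libraries that are also in the interaction, this share of called miRNAs is not read against that of all 489. Of the 32 miRNAs called in the breeding trial cohort 30 were in the joint fit. Of these, 27 (90%) had the same sign in virgin females, against 122 of 225 (54.2%) miRNAs not called. Those with the other sign were miR-146a-5p, miR-770-5p and miR-540-5p, at −0.20, −0.10 and 0.27 in virgin females. Some with the same sign lay near 0 there, such as miR-669d-5p at 0.09, miR-3099-3p at 0.10 and miR-409-5p at −0.07. Across 153 miRNAs with at least 50 mean counts the log2 fold changes of the cohorts correlated at r = 0.791, and at 0.618 across the 148 left without the miR-200 arms. These points share the libraries of each cohort and are not independent replicates. Age, breeding, RNA input, the number of bases matched, the names matched to and the sequencer all differed between the cohorts and cannot be told apart. Virgin WT replicate 1 had a TMM factor of 0.570, and the interaction count was also 0 without it.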

How the data were processed

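Small RNA of the pituitary was sequenced in 21 libraries, of which 7 entered the main comparison and 10 more (3 of *Zeb1 200M* and 7 of virgin females) the last 2. Per the labels and methods, the authors trimmed reads with cutadapt, matched the first 18 bases of each (19 in the virgin cohort) to a table of miRNA names and deposited raw counts per miRNA and library. Names of the RefSeq table that share their first 18 bases had no row (23 names in 11 groups), so let-7a-5p, for example, was not analysed here. Nor were miR-30b-5p, miR-30c-5p and miR-133a-3p of the lists, which also had no row. The deposited files also hold the authors' log2 fold changes, p values and size-factor scaled values, which were not used. Raw counts were fitted with edgeR 4.0.16 in R 4.3.3: filterByExpr (at least 10 counts in enough libraries and 15 in all), TMM, a quasi-likelihood F test and Benjamini-Hochberg adjustment over all miRNAs tested, called below 0.05. A test of 2 genotypes used their libraries alone. The interaction used the 1816 names in both cohorts' tables. The members and lists were chosen with earlier results of these data known, and 147 of 153 list members had a row. Named miRNAs were the 10 miR-200 arms, the 10 called with the largest fold in each direction without overlap in CPM, the 10 most abundant in WT, and the called members (up to 4) or else the most abundant member of each list, besides those called in the last 2 comparisons. An alternative was DESeq2 1.42.0, run without filterByExpr. Others were RLE factors, TMM without the miR-200 arms, other filters, a fit of 3 genotypes and a robust fit. The replicate number as a block, an adjusted p below 0.01 and each library left out were also tried. The fitting code was tested on simulated data. Loci and sequences are from RefSeq and host genes from GENCODE on GRCm38.p6.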

Additional observations from a re-analysis of the deposited data

Results flagged for a closer look

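In 5 of the 84 values checked, 1 of the 4 WT libraries stood far from the other 3, with a gap to the nearest, as a share of the whole range, above Dixon's critical value. Chance marks about 1 in 20 groups in this way. For miR-21a-5p the share was 0.879, with WT replicate 4 at 4080.4 CPM and the others at 3792 to 3827 CPM. The vascular and smooth muscle sum gave 0.832, with WT replicate 1 at 10075 CPM and the others at 10441 to 10515 CPM. The sum of the miR-200 guides gave 0.843, with WT replicate 2 at 61385 CPM and the others at 63399 to 63775 CPM. The sum of miR-200c-3p and miR-141-3p gave 0.888, again for WT replicate 2, at 35423 CPM against 38339 to 38707 CPM. The neuronal sum without miR-124-3p gave 0.902, with WT replicate 3 at 9822.5 CPM and the others at 12042 to 12283 CPM. Groups of 3 libraries were not checked.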

How the results depend on the processing

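All 5 miR-200 guides, miR-205-5p, the 3 guides of the miR-183 cluster, miR-375-3p, miR-124-3p, miR-34c-5p, miR-330-5p, miR-140-5p, miR-484 and both arms of miR-335 were called in the same direction under each of the 15 settings tried. The miRNAs taken by the naming rule had 627 values in the main comparison under other settings. Of these, 581 kept their direction and their side of the threshold, 40 fell short of it, 6 newly passed it, and none changed sign past it. This tally leaves out miR-409-5p, miR-540-5p and miR-669d-5p, named outside that rule, which also lost their calls under some settings. The count of 32 became 21 at an adjusted p below 0.01 and ran from 24 to 33 with 1 library left out. The 13 higher became 7 with DESeq2 and 6 at an adjusted p below 0.01, and ran from 7 to 11 with 1 library left out; the 19 lower ran from 16 to 22. The interaction count of 0 was 2 without a filter and 0 with any 1 library left out. The 3 called between *Zeb1 200M* and *Zeb1 200H* ran from 3 to 5. The cause of these shifts was not tested.

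With the replicate number as a block, 47 miRNAs were called, 23 higher and 24 lower, among them 31 of the 32. miR-669d-5p was not (edgeR, Benjamini-Hochberg adjusted p = 0.0679). The 16 added include miR-7a-5p at a log2 fold change of −0.24, miR-125b-5p at 0.28, let-7f-5p at 0.25, miR-34a-5p at −0.61, miR-326-3p at 0.63, the neuronal miR-9-5p and miR-138-5p at 0.54 and 0.46, and miR-144-3p of the blood list at 0.50. Of the 66 tested miRNAs in lists without a call, 6 were called with the block. They were let-7f-5p, miR-125b-5p, miR-212-5p (0.47) and, of the 30 *Dlk1*-*Dio3* miRNAs, miR-136-5p (−0.35), miR-380-3p (0.72) and miR-487b-3p (0.60). The block changed no other call of a miRNA named in the report for this comparison. It called 5 between *Zeb1 200M* and *Zeb1 200H*, and left the interaction at 0. Whether the numbers mark pairs is not stated by the labels and could not be settled from the data. Over the 267 tested miRNAs, deviations from genotype means correlated at 0.102, 0.049 and 0.161 in pairs 1, 3 and 4, short of the limit of 0.1 set for every pair, and not every library was closest to its own number. On that outcome the libraries were treated as unpaired. After it was seen, and with the block's calls known, 24 forms of this check were tried (4 pseudocounts, 3 count minimums, WT replicate 2 in or out of the mean). Every pair passed in 10 of them, all with WT replicate 2 in the mean. With at least 50 mean counts the values were 0.159, 0.221 and 0.308, each library closest to its own number, and −0.012, 0.302 and 0.378 with WT replicate 2 out. In the other comparisons not every same-numbered pair correlated.

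Depth limits what could be seen: 267 of 1841 names were tested, and *Zeb1 200H* had 3 libraries, the shallowest with 60037 counts. The labels give neither the clone nor the litters borne by the mouse behind each library. Libraries were made from little RNA with yeast RNA added. Counts by the first 18 bases do not tell apart miRNAs that differ only beyond them.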
